A study of Bos indicus x Bos taurus with 45 samples.

Results

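The miR-34 and miR-449 family was followed through small RNA sequencing of 4 tissues of bovine fetuses. Its members were every row of the deposited tables named miR-34a, miR-34b, miR-34c, miR-449a, miR-449b or miR-449c, on either arm. Of 603 miRNA names in the 4 tables together, 5 belonged to the family: bta-miR-34a, bta-miR-34c, bta-miR-449a, bta-miR-449b and bta-miR-449c, written below without the prefix for cattle. Among the 436 miRNAs listed in kidney were 3 of them (miR-34a, miR-34c and miR-449a), among the 563 in liver 2 (miR-34a and miR-34c), among the 439 in skeletal muscle 3 (miR-34c, miR-449a and miR-449c) and among the 460 in tongue all 5. The row of miR-449a gives its precursor as "mixed", while each other member names 1 precursor, so the miR-449a row may combine more than 1 precursor.

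The fetuses were Bos indicus x Bos taurus at about day 105 of gestation. Fetuses labelled LOS had large offspring syndrome, an overgrowth syndrome of calves conceived by assisted reproductive technologies. Fetuses labelled ART were conceived by assisted reproduction and were healthy, and they were sampled in liver alone. Control fetuses were conceived by artificial insemination and were healthy. There were 4 LOS and 4 control kidneys, 4 LOS, 4 ART and 5 control livers, 4 LOS and 4 control skeletal muscles, and 7 LOS and 9 control tongues. All groups shared the stage and the hybrid background, and LOS differed from control in method of conception as well as in phenotype, so these cannot be told apart in the LOS against control comparisons. The sex was given for tongue alone, with 3 male and 4 female LOS fetuses and 4 male and 5 female control fetuses. Each library was made from 2 µg of total RNA of frozen tissue.

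The miR-34 and miR-449 miRNAs share their seed, the bases at the 5′ end through which a miRNA recognises its targets, and so they share many targets, among them cell cycle genes. In human and mouse, miR-34a is transcribed from a gene of its own, and miR-34b and miR-34c come from another transcript near BTG4; both genes are induced by the tumour suppressor p53. The miR-449 cluster lies in an intron of CDC20B and is known for its high level in multiciliated epithelia, where it acts with miR-34b/c in the formation of motile cilia.

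Tongue libraries were the deepest, with 9357833 to 13822348 listed reads; kidney libraries had 6132982 to 9170756, muscle libraries 4744968 to 6456252 and liver libraries 3379816 to 4976770. Levels are given as CPM, each library's counts scaled to the same total of listed miRNA reads, and the log2 differences and tests come from edgeR's quasi-likelihood fit, which also corrects for library composition. A miRNA was called at an adjusted p under 0.05 over all miRNAs of the fit. The skeletal muscle and hepatocyte markers followed the tissue labels. The summed level of skeletal muscle miRNAs was 16112 to 24060 CPM in muscle and tongue, against 17.7 to 209 CPM in kidney and liver. The summed hepatocyte miRNAs reached 15400 to 20821 CPM in liver and at most 29.6 CPM in kidney and muscle, with no row in tongue. The kidney epithelium list did not mark kidney: its sum was 21915 to 26771 CPM in kidney and higher in liver, at 62446 to 82317 CPM. The tongue library control 9 stood apart with 8321 CPM of kidney epithelium miRNAs, against at most 2809 CPM in any other tongue library. Counting error per library was small for miR-34c in tongue, at 480 to 1505 reads, and large for miR-449c in muscle, at 6 to 35 reads. The 95% exact Poisson interval of the lowest of these, 6 reads in muscle LOS 3, was 2.20 to 13.1 reads and covers counting error only.

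The miR-34 members stood near the middle of the tables where they were highest, miR-34a at rank 275 of 563 by mean level in liver and miR-34c at rank 250 of 460 in tongue, and the miR-449 members stood lower. Averaged over the libraries of a tissue, the listed members together took 125.1 ± 16.5 CPM in liver (SD, n = 13), 103 ± 27.4 CPM in tongue (n = 16), 54.9 ± 7.47 CPM in kidney (n = 8) and 25.4 ± 7.01 CPM in muscle (n = 8). The miR-449 members supplied 52.7% ± 15.003 of the family's reads in muscle, 21.3% ± 4.32 in kidney and 16.4% ± 9.28 in tongue. miR-34c supplied most of the family's reads in tongue, 67.0% ± 9.58, and in kidney, 64.1% ± 6.78, while miR-34a supplied most of them in liver, where miR-34c made up 38.5% ± 5.60. By mean level miR-449b was the last of the 460 miRNAs listed in tongue and miR-449c the last of the 439 listed in muscle. The family sums and shares cover different members in each tissue, since the listed members differ, and are not like for like between tissues. Whether a member with no row was absent or fell under a cut-off is not stated.

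**Figure D1:**
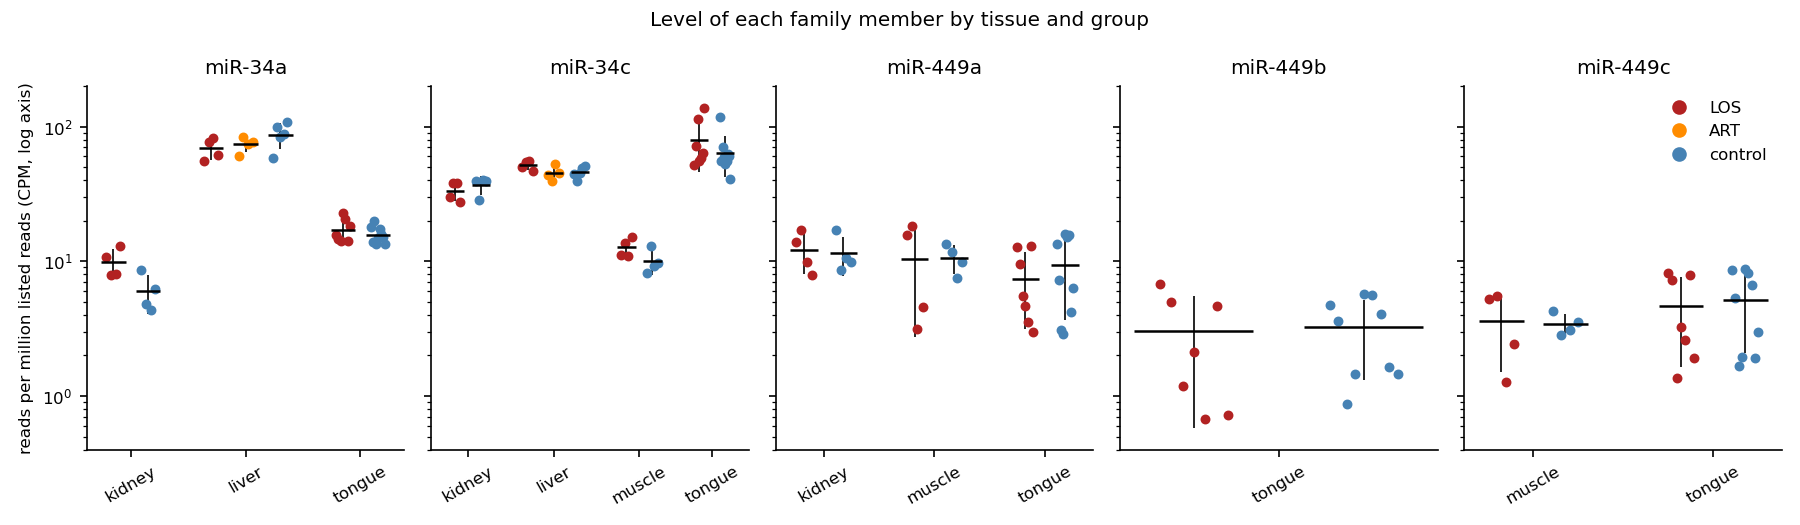
Level of each family member in each library, in CPM on a log axis, by tissue, with LOS, ART and control libraries in separate columns. Horizontal bars are group means and vertical lines ± 1 SD; miR-34a stands highest in liver, at 55.1 to 108 CPM, and the highest tongue library of a group has 4.36 to 10.2 times the lowest for the miR-449 members.

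miR-34a, the family member best known as a p53 target, had a steep order among tissues. In control fetuses it averaged 87.3 ± 18.9 CPM in liver (SD, n = 5), 15.7 ± 2.21 CPM in tongue (n = 9) and 6.00 ± 1.94 CPM in kidney (n = 4), and no library of one tissue overlapped with another tissue. The level in liver was higher than in kidney by 2.83 ± 0.19 on the log2 scale (SE; edgeR adjusted p = 1.47e-11), which is 7.13-fold. Without the composition factors it was 3.89, since leaving them out moves the median of all 392 miRNAs by 1.07 between these tissues. By their numbers, some control fetuses gave more than 1 of these tissues, which this fit did not pair. With the fetus number as a block the liver against kidney difference was 2.57 (edgeR adjusted p = 5.23e-07). Tongue was above kidney by 1.01 ± 0.17 (adjusted p = 1.76e-05) and below liver, with a log2 difference of -1.82 ± 0.13 (adjusted p = 3.59e-11). Such tissue differences were common: 84.4% of 392 miRNAs were called between liver and kidney, 82.4% between tongue and kidney and 89.5% between tongue and liver. A log2 difference as large as that of miR-34a between liver and kidney was met by 8.93% of the miRNAs, whereas 42.6% met the one between tongue and kidney. Tongue reads were processed with an extra tool named in the submitters' notes, so tissue and processing cannot be told apart in comparisons with tongue. By fetus number, the control kidneys, livers and muscles came from fetuses labelled female in tongue, while the control tongues were of both sexes. Sex is therefore also mixed into the comparisons with tongue. In bulk tissue, fewer cells of a type and less RNA per cell cannot be told apart, here or in what follows.

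miR-34c was listed in all 4 tissues. In control fetuses it averaged 63.9 ± 21.5 CPM in tongue (SD, n = 9), 45.7 ± 4.42 CPM in liver (n = 5), 36.9 ± 5.72 CPM in kidney (n = 4) and 10.03 ± 2.06 CPM in muscle (n = 4). Muscle was lowest under each scaling run: its log2 difference was -1.96 ± 0.23 from kidney (edgeR adjusted p = 5.89e-08) and -1.21 ± 0.22 from liver (adjusted p = 2.54e-05), and tongue was above muscle by 2.30 ± 0.21 (adjusted p = 2.17e-09), or 4.93-fold. Tongue also stood above liver by 1.09 ± 0.17 (adjusted p = 2.71e-06). The order of liver and kidney depended on the scaling. With composition factors the log2 difference of liver from kidney was -0.75 ± 0.20 (edgeR adjusted p = 0.00130), or -0.53 with the fetus number as a block (edgeR adjusted p = 0.0234). Without the factors it was 0.34 (edgeR adjusted p = 0.133), the side on which the plain CPM means fall. Leaving these factors out moved the median of all 374 miRNAs by 1.09 between liver and kidney, 0.45 between tongue and kidney and -1.01 between muscle and liver. The log2 difference of tongue from kidney was 0.34 ± 0.18 (adjusted p = 0.0783), which was not a call. That difference was called without tongue control 2 (adjusted p = 0.0480) or tongue control 9 (adjusted p = 0.0285), and with the fetus number as a block it was 0.57 (adjusted p = 0.0134). Calls between tissues were the rule, at 84.5% of the 374 miRNAs between liver and kidney, 76.7% between muscle and kidney, 80.7% between tongue and kidney, 86.1% between muscle and liver, 89% between tongue and liver and 70.6% between tongue and muscle. A log2 difference as large as that of miR-34c between tongue and muscle was met by 3.74% of the miRNAs.

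miR-449a and miR-449c had overlapping ranges in the tissues that list them. miR-449a averaged 11.5 ± 3.73 CPM in control kidney (SD, n = 4), 10.6 ± 2.55 CPM in control muscle (n = 4) and 9.34 ± 5.65 CPM in control tongue (n = 9). The log2 difference was -0.20 ± 0.49 between muscle and kidney (edgeR adjusted p = 0.711), -0.78 ± 0.40 between tongue and kidney (adjusted p = 0.0771) and -0.58 ± 0.41 between tongue and muscle (adjusted p = 0.218), where 76.5%, 81.5% and 67.3% of 379 miRNAs were called. The difference between tongue and kidney was near the threshold: it was called without tongue control 5 (adjusted p = 0.0449), 6 (adjusted p = 0.0456) or 7 (adjusted p = 0.0415), by limma-voom at -1.03 (adjusted p = 0.0344) and by DESeq2 at -0.83 (adjusted p = 0.0424). With the fetus number as a block, a fit that keeps control fetuses 1 to 4 alone, the log2 difference of tongue was -1.39 from kidney (adjusted p = 0.00105) and -1.23 from muscle (adjusted p = 0.00453). Those 4 fetuses had 13.5, 7.20, 3.11 and 2.89 CPM in tongue, against 16.01, 15.02, 15.8, 4.23 and 6.30 CPM in control tongues 5 to 9, 3 of which lay above them all. miR-449c averaged 5.12 ± 3.04 CPM in control tongue (n = 9) and 3.43 ± 0.63 CPM in control muscle (n = 4), with a log2 difference of 0.21 ± 0.49 (adjusted p = 0.726; 65.9% of 414 miRNAs called) that turned to -0.05 with limma-voom and -0.16 with the block.

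None of the family members was called between LOS, ART and control fetuses in any tissue, by edgeR, DESeq2 or limma-voom. Of the 13 member rows of the LOS against control comparisons, 1 had an unadjusted p under 0.05, miR-34a in kidney. As background, edgeR called 0% of miRNAs in kidney, muscle and tongue, where 33 of 436, 58 of 439 and 25 of 460 had an unadjusted p under 0.05. In liver it called 1.24% of 563 miRNAs between LOS and control, 0% between ART and control, with 46 under an unadjusted 0.05, and 2.66% between LOS and ART. DESeq2 called 3 miRNAs in kidney, 17 in muscle, 6 between ART and control in liver and 0 in tongue, and limma-voom called 0 in each of these. Other edgeR settings called up to 3 miRNAs in muscle, and without single libraries edgeR called up to 2 in kidney and up to 5 between ART and control livers.

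In kidney, miR-34a had 10.7, 7.87, 8.00 and 13.1 CPM in LOS fetuses 1 to 4, against 8.67, 4.79, 4.35 and 6.20 CPM in control fetuses 1 to 4. LOS fetuses 1 and 4 lay above every control, and LOS fetuses 2 and 3 lay below control 1 and above the other 3 controls. The means were 9.92 ± 2.49 CPM in LOS and 6.00 ± 1.94 CPM in control kidneys (SD, n = 4 each), a log2 difference of 0.73 ± 0.24 (SE; edgeR unadjusted p = 0.0117, adjusted p = 0.368), the 12th lowest p of 436. It ran from 0.56 to 0.92 when single libraries were left out and was never called, with a lowest adjusted p of 0.297. The summed level of smooth muscle and fibroblast miRNAs in the same libraries was 47845 to 53089 CPM in LOS and 49754 to 68688 CPM in control kidneys, and its part in the difference was not tested.

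In liver, miR-34a had 55.1, 76.3, 82.8 and 61.9 CPM in LOS fetuses, 60.7, 83.7, 74.5 and 77.0 CPM in ART fetuses, and 58.1, 99.6, 83.5, 87.6 and 108 CPM in control fetuses. The groups overlapped: LOS 1 lay below every control and ART liver, and controls 2, 4 and 5 lay above every LOS and ART liver. The log2 difference of LOS from control was -0.35 ± 0.17 (SE; edgeR adjusted p = 0.366), that of ART from control -0.22 ± 0.17 (adjusted p = 0.769) and that of LOS from ART -0.13 ± 0.18 (adjusted p = 0.770); the first pair share the control livers. In tongue, miR-34a ran from 14.1 through a median of 15.7 to 23.0 CPM in LOS fetuses, against 13.4, 15.1 and 19.8 CPM in control fetuses. These ranges overlapped over most of their length, with a log2 difference of 0.11 ± 0.11 (adjusted p = 0.915).

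The LOS difference of miR-34a therefore lay above 0 in kidney and below 0 in liver. In a fit of both tissues with the fetus as a block, the LOS difference in liver minus that in kidney was -0.98 (edgeR unadjusted p = 0.0226, adjusted p = 0.487), and 0% of 417 miRNAs were called. For miR-34c the same quantity was 0.35 (unadjusted p = 0.0209, adjusted p = 0.487). For miR-449a, the LOS difference in muscle minus that in kidney was -0.27 (adjusted p = 0.810), in a fit where 0% of 398 miRNAs were called. Over kidney, liver and muscle together, where 1.29% of 389 miRNAs were called for a tissue-dependent LOS difference, miR-34c had an adjusted p of 0.360.

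In kidney and liver no LOS difference of miR-34c passed the test. In kidney it had 29.8, 38.2, 37.8 and 27.6 CPM in LOS fetuses and 39.5, 28.3, 40.4 and 39.3 CPM in control fetuses, a log2 difference of -0.15 ± 0.15 (SE; edgeR adjusted p = 0.891). In liver it had 50.4, 54.9, 56.0 and 47.1 CPM in LOS fetuses, 43.6, 39.3, 52.6 and 45.2 CPM in ART fetuses, and 44.4, 39.3, 44.98, 49.1 and 50.6 CPM in control fetuses. LOS fetuses 2 and 3 stood above every ART and control liver. The log2 difference was 0.18 ± 0.11 from control (adjusted p = 0.483) and 0.17 ± 0.11 from ART (adjusted p = 0.485), and ART against control came to 0.0021 ± 0.11 (adjusted p = 0.996).

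In muscle, miR-34c had 11.2, 13.6, 11.0 and 15.1 CPM in LOS fetuses, against 8.17, 13.0, 9.27 and 9.73 CPM in control fetuses. All 4 LOS muscles lay above 3 of the 4 controls, and LOS fetuses 2 and 4 above all of them, at 52 to 93 reads per LOS library and 48 to 69 per control library. The log2 difference was 0.37 ± 0.18 (SE; edgeR unadjusted p = 0.0701, adjusted p = 0.388). In tongue the values ran from 52.1 through a median of 64.0 to 136.5 CPM in LOS fetuses, against 40.8, 59.7 and 117 CPM in control fetuses. LOS fetuses 3 and 7, at 114 and 136.5 CPM, and control 1, at 117 CPM, stood well above the other tongues, which had at most 71.5 CPM. The tongue log2 difference was 0.29 ± 0.22 (adjusted p = 0.915); it ran from 0.077 without LOS 7 to 0.42 without control 1, and was called in neither case.

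In kidney and muscle the group means of miR-449a nearly coincided. In kidney it averaged 12.2 ± 4.16 CPM in LOS and 11.5 ± 3.73 CPM in control fetuses (SD, n = 4 each), with a log2 difference of 0.08 ± 0.27 (edgeR adjusted p = 0.987). In muscle it had 15.8, 18.3, 3.16 and 4.55 CPM in LOS fetuses, against 13.4, 11.7, 7.45 and 9.92 CPM in control fetuses. LOS muscles 1 and 2 lay above every control and LOS muscles 3 and 4 below every control, and the means were 10.5 ± 7.72 CPM in LOS and 10.6 ± 2.55 CPM in control muscles (SD, n = 4 each), with a log2 difference of -0.0028 ± 0.49 (adjusted p = 0.997). miR-449c in the same muscles had 5.27, 5.54, 1.26 and 2.44 CPM in LOS fetuses, against 4.25, 2.82, 3.09 and 3.55 CPM in control fetuses. It too had LOS fetuses 1 and 2 above and 3 and 4 below every control, with a log2 difference of 0.12 ± 0.38 (adjusted p = 0.917).

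In tongue, miR-449a ran from 2.99 through a median of 5.48 to 13.1 CPM in LOS fetuses, against 2.89, 7.20 and 16.01 CPM in control fetuses. miR-449b ran from 0.67 through 2.11 to 6.84 CPM in LOS fetuses, against 0.87, 3.602 and 5.69 CPM in control fetuses. miR-449c ran from 1.37 through 3.25 to 8.19 CPM in LOS fetuses, against 1.66, 5.29 and 8.75 CPM in control fetuses. All 3 had high and low fetuses in both groups. The log2 differences of LOS from control were -0.34 ± 0.43 for miR-449a, -0.16 ± 0.51 for miR-449b and -0.17 ± 0.45 for miR-449c (SE; edgeR adjusted p = 0.915, 0.981 and 0.971). The SE of each of these was larger than the 0.11 of miR-34a in the same libraries.

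**Figure D2:**
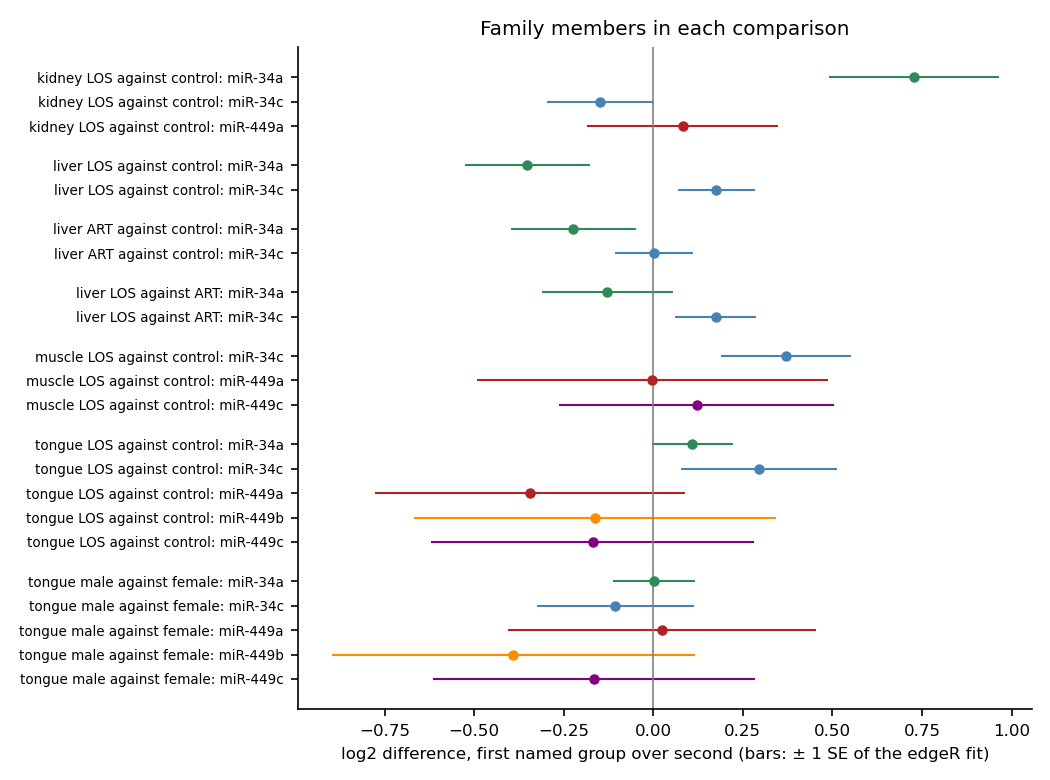
Fitted log2 difference of each family member in each comparison, the first named group over the second; points are edgeR estimates and bars ± 1 SE, and colours mark the member. Of the status and sex differences drawn, miR-34a in kidney has the largest estimate, 0.73, and the miR-449 members of muscle and tongue have the widest bars.

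Sex made no called difference in tongue, where edgeR, DESeq2 and limma-voom called 0% of 460 miRNAs and 62 had an unadjusted p under 0.05. miR-34a averaged 16.4 ± 2.54 CPM in males and 16.4 ± 3.22 CPM in females (SD, n = 7 and 9), and the log2 difference of males from females, adjusted for LOS, was 0.0016 ± 0.11. It was -0.11 ± 0.22 for miR-34c, 0.02 ± 0.43 for miR-449a, -0.39 ± 0.51 for miR-449b and -0.17 ± 0.45 for miR-449c, with edgeR adjusted p of 0.777 or more. The LOS difference did not differ between the sexes past the threshold for any member, nor for any of the 460 miRNAs (0%; 20 had an unadjusted p under 0.05; DESeq2 and limma-voom also called 0). For miR-34c, male tongues had 86.2 ± 43.6 CPM with LOS and 54.7 ± 9.68 CPM in controls (n = 3 and 4), while female tongues had 73.3 ± 28.6 CPM with LOS and 71.3 ± 26.5 CPM in controls (n = 4 and 5). The difference between these log2 differences was 0.56 ± 0.43 (edgeR adjusted p = 0.979), and 0.081 without LOS 7.

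Other miRNAs of the p53 pathway were followed through lists of miRNAs known mainly from human cells to be raised by p53, such as miR-192, miR-194, miR-215, miR-143 and miR-145, or to lower p53 itself, such as miR-125b and miR-504. None of the 12 to 16 listed rows of the raised list was called between LOS and control in any tissue. Its rows with an unadjusted edgeR p under 0.05 were 5 of 13 in kidney, 6 of 16 in liver, 2 of 12 in muscle and 4 of 13 in tongue. Over all miRNAs the shares were 7.57%, 14%, 13.2% and 5.43%. Whether the list differs from that background was not tested. Its median log2 difference was 0.025 in tongue, where that of all miRNAs was 0.010, and -0.080 in muscle, where it was -0.013. In liver it was 0.030, where that of all miRNAs was 0.013, and in kidney -0.00053, where it was 0.0064. Between LOS and ART livers 8 of its 16 rows were above 0 and 8 below. Of these 1 was called, miR-192, lower in LOS at -0.29 ± 0.06 (SE, edgeR adjusted p = 0.0260). That comparison called 2.66% of all 563 miRNAs, 15 in all, and 3 with the replicate block or 6 with only those groups fitted. miR-192 is abundant in liver and also stands on the kidney epithelium list. The largest kidney differences in the raised list were miR-143-5p at -0.57 ± 0.20 (adjusted p = 0.456) and miR-145-3p at -0.53 ± 0.15 (adjusted p = 0.347), both below 0 where miR-34a was above it. Both are also on the list of smooth muscle and fibroblast miRNAs. Of all 13 raised rows in kidney, 6 were above 0 and 7 below. Of the 7 or 8 listed rows of the list that lowers p53, none was called, and miR-125b in muscle came nearest, at -0.55 ± 0.10 (adjusted p = 0.0526). For LOS against control its median was -0.058 in tongue, -0.046 in muscle, 0.025 in liver and -0.071 in kidney. Among the marker lists of the cell types a tissue could hold (epithelium, neural, skeletal muscle, hepatocyte, red cell, white blood cell, endothelium, smooth muscle and fibroblast, and kidney epithelium), no row was called between LOS and control in any tissue. In kidney, muscle and tongue edgeR called 0% of all miRNAs. Some lists still leaned to 1 side. All 9 smooth muscle and fibroblast rows were above 0 in liver (median 0.25), and in kidney 8 were below 0 and 1 above (median -0.29). In muscle 4 were above 0 and 5 below, and in tongue 5 and 4. All 8 white blood cell rows were below 0 in liver. The part of such shifts in the family's levels was not tested.

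The family members varied to unlike degrees between fetuses of 1 group. In tongue, the SD of log2 CPM within groups was 1.09 for miR-449b, 0.98 for miR-449c and 0.94 for miR-449a, which ranked 3rd, 8th and 10th of 460 miRNAs. miR-34c followed with 0.47, ranked 44th, and miR-34a with 0.24, ranked 195th, near the median of 0.21 over all miRNAs. Counting error alone would give 0.32, 0.24 and 0.18 for miR-449b, miR-449c and miR-449a, so it made up a minor part of their spread. In muscle, miR-449a had an SD of 0.89 (10th of 439) and miR-449c 0.65 (23rd), against 0.25 for miR-34c, with counting errors of 0.22, 0.36 and 0.18. In kidney the SD was 0.46 for miR-449a (28th of 436), 0.39 for miR-34a and 0.24 for miR-34c. These ranks are a description, since spread runs higher among rare miRNAs.

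**Figure D3:**
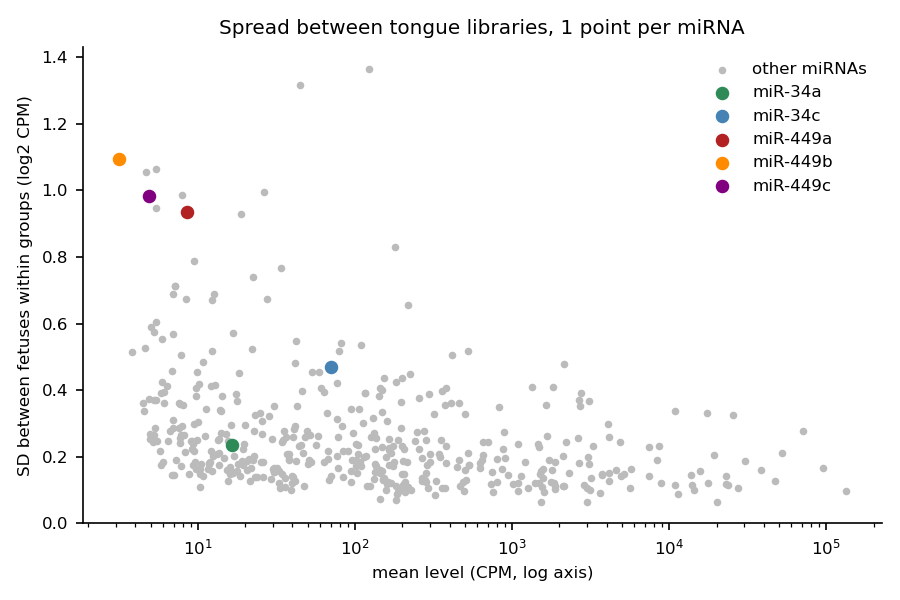
Each point is 1 of the 460 miRNAs listed in tongue, placed by its mean level in CPM (log axis) and by its SD between fetuses within groups on the log2 CPM scale. The 3 miR-449 members, at 0.94 to 1.09, lie far above the median of 0.21, and miR-34a, at 0.24, lies close to it.

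The 3 miR-449 members rose and fell together from fetus to fetus. In tongue, over 16 libraries and with log2 CPM centred on the group means, Pearson's r was 0.914 between miR-449a and miR-449b (permutation p = 2e-05), 0.918 between miR-449a and miR-449c (p = 1e-05, the smallest that 100000 permutations can give) and 0.931 between miR-449b and miR-449c (p = 2e-05), each with an adjusted p of 0.000113 over 17 pairs. Spearman's rho was 0.832, 0.835 and 0.859 (permutation p = 0.00014, 8e-05 and 5e-05), and r without the 2 libraries farthest from the median was 0.923, 0.906 and 0.951. miR-449b had no library between 2.11 and 3.602 CPM, so its values leave a gap. In muscle, miR-449a and miR-449c had r = 0.943 over 8 libraries (exact permutation p = 0.000496, adjusted p = 0.00211), rho = 0.929 and r = 0.871 without the 2 farthest libraries. In tongue, over LOS and control fetuses together, reads of miR-449c were 0.585 ± 0.137 of those of miR-449a (SD, n = 16) and reads of miR-449b 0.359 ± 0.117, with ranges of 0.250 to 0.756 for miR-449c and 0.191 to 0.539 for miR-449b. The lowest of the miR-449c ratios was LOS 3. In muscle the ratio of miR-449c to miR-449a was 0.363 ± 0.0889 (n = 8).

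The miR-34 members did not take part in this covariation to a degree that passed the test. In tongue, r between miR-34c and miR-449a, miR-449b and miR-449c was -0.15, -0.24 and -0.24 (permutation p = 0.584, 0.370 and 0.362), and none of the 13 pairs that include a miR-34 member had an adjusted p under 0.05 in any tissue. LOS 7, with the highest miR-34c of all tongues at 136.5 CPM, had 2.99 CPM of miR-449a, whereas control 1, with 117 CPM of miR-34c, had 13.5 CPM. miR-34a and miR-34c, which in human and mouse come from separate genes, had r = 0.13 in tongue (permutation p = 0.625), 0.21 in liver (permutation p = 0.500) and -0.24 in kidney (exact permutation p = 0.576).

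**Figure D4:**
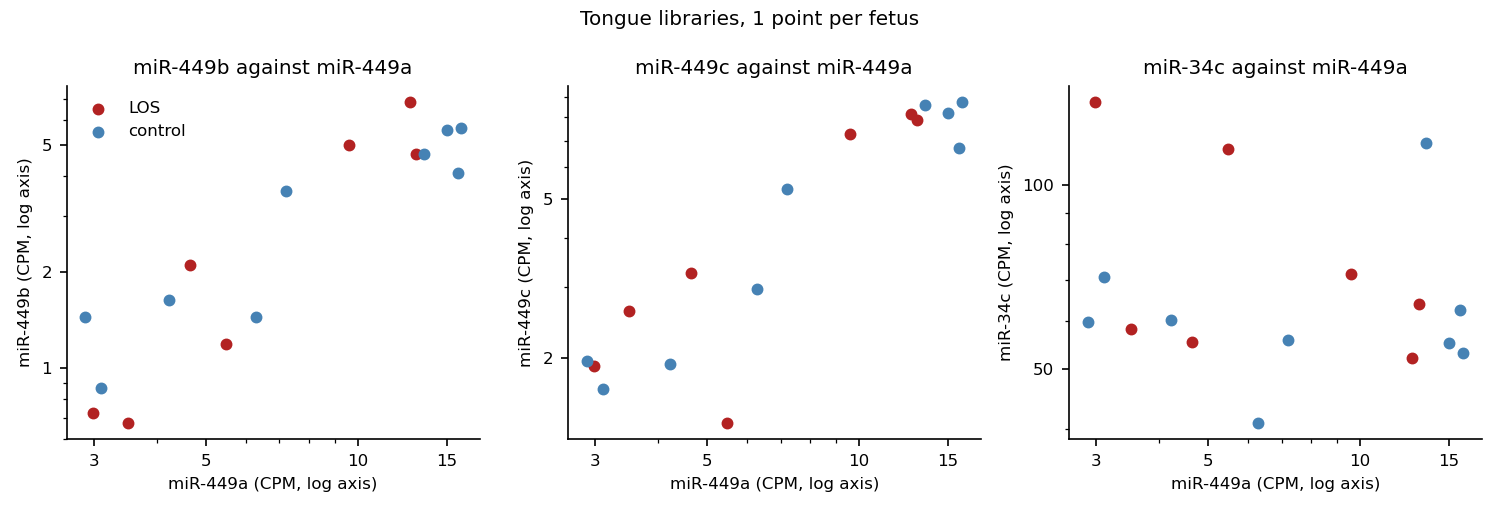
Tongue libraries, 1 point per fetus, with miR-449a in CPM on the x axis and miR-449b, miR-449c or miR-34c in CPM on the y axis (log axes). LOS and control fetuses lie along 1 band for miR-449b and miR-449c, with r of 0.914 and 0.918, and show no such band for miR-34c.

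Where the labels give the same fetus number in several tissues, the miR-449 level could be followed within a fetus. LOS fetuses 1 and 2 had 13.9 and 17.1 CPM of miR-449a in kidney, 15.8 and 18.3 CPM in muscle and 12.7 and 9.62 CPM in tongue. LOS fetuses 3 and 4 had 9.83 and 7.85 CPM in kidney, 3.16 and 4.55 CPM in muscle and 5.48 and 4.66 CPM in tongue, below LOS fetuses 1 and 2 in each tissue. Control 1 was likewise highest of the first 4 control fetuses in all 3 tissues, at 17.0, 13.4 and 13.5 CPM. Over 8 fetuses, centred on group means, r for miR-449a was 0.737 between kidney and muscle (exact permutation p = 0.0404), 0.707 between kidney and tongue (p = 0.0607, exact) and 0.674 between muscle and tongue (p = 0.0735, exact). For miR-449c it was 0.766 between muscle and tongue (exact permutation p = 0.0232). None of these passed adjustment over the 13 relations, with adjusted p of 0.1004 to 0.1195, and rho was 0.476 to 0.714. Other miRNAs also shared part of their deviations between tissues, with a median r of 0.187 to 0.311 for these pairs of tissues; miR-449a ranked 48th of 398, 58th of 402 and 51st of 414, and miR-449c 26th of 414.

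**Figure D5:**
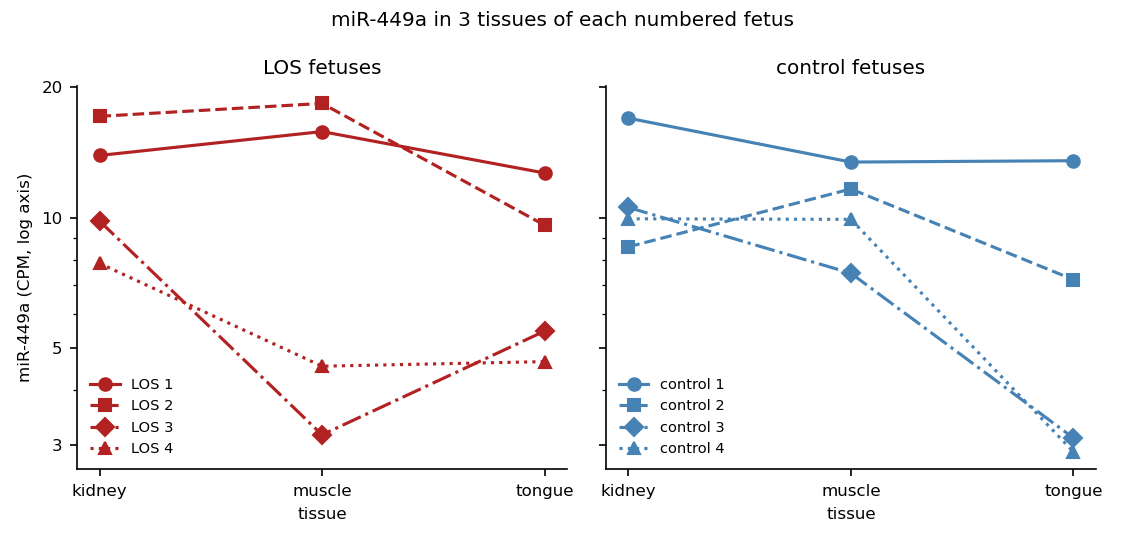
miR-449a in CPM (log axis) in kidney, skeletal muscle and tongue, with 1 line for each numbered fetus, LOS fetuses on the left and control fetuses on the right. LOS 1 and 2 lie above LOS 3 and 4 in every tissue, and control 1 is the highest of the 4 controls in every tissue.

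Between kidney and liver of the same fetus, the correlations of miR-34c and miR-34a had opposite signs, and that of miR-34c passed the adjustment. For miR-34c r was 0.908 over 8 fetuses (exact permutation p = 0.00188, adjusted p = 0.0245) and rho 0.738 (exact permutation p = 0.0458, adjusted p = 0.187), and r without the 2 farthest fetuses was 0.654, so the relation rests in part on them. It ranked 14th of 417 miRNAs, whose median r was 0.173. For miR-34a r was -0.821 (exact permutation p = 0.0126, adjusted p = 0.0821), the second lowest of the 417. Control 1 had the highest miR-34a of the control kidneys, 8.67 CPM, and the lowest of the control livers, 58.1 CPM. The pairs with muscle had negative r for miR-34c: -0.672 with kidney, -0.614 with liver and -0.629 with tongue. None passed (exact permutation, adjusted p = 0.1195, 0.1415 and 0.1324). Without the 2 farthest fetuses they were 0.342, 0.468 and -0.502. Between tongue and kidney r of miR-34c was 0.659, and between tongue and liver 0.227 (exact permutation, adjusted p = 0.1195 and 0.556).

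The summed level of the listed miR-449 members was set beside the depth and beside the marker sums of each tissue, 35 relations in all. In tongue, r was -0.04 with the epithelial miRNAs, which include miR-200 and miR-205 and among which 12 rows were listed, 0.28 with the skeletal muscle miRNAs, 0.04 with listed reads and -0.19 with the kidney epithelium miRNAs (permutation p = 0.870, 0.304, 0.867 and 0.618), and none of the tongue or kidney relations had an adjusted p under 0.05. The epithelial sum in tongue was 5345 to 9932 CPM in LOS and 4921 to 10211 CPM in control fetuses. In muscle the miR-449 sum was low where smooth muscle and fibroblast miRNAs were high, with r = -0.950 (exact permutation p = 0.000620, adjusted p = 0.0217), rho = -0.952 and r = -0.976 without the 2 farthest libraries. It was high where skeletal muscle miRNAs were high, with r = 0.902 (exact permutation p = 0.00263, adjusted p = 0.0460), rho = 0.952 and r = 0.860 without the 2 farthest. Other sums passed on rho alone: that of the p53-raised miRNAs, with r = -0.880 (exact permutation p = 0.00441, adjusted p = 0.0515) and rho = -0.905 (adjusted p = 0.0399), and that of the hepatocyte list, 1 row at 1.62 to 29.6 CPM in muscle, with r = 0.853 (exact permutation p = 0.00761, adjusted p = 0.0666) and rho = 0.905 (adjusted p = 0.0399). The p53-raised list shares miR-143 and miR-145 with the smooth muscle and fibroblast list. LOS muscles 1 and 2, with the most miR-449, had 38804 and 41444 CPM of smooth muscle and fibroblast miRNAs and 20573 and 22477 CPM of skeletal muscle miRNAs, against 51556 and 49492 CPM and 18181 and 17984 CPM in LOS muscles 3 and 4. Depth moved the same way in muscle, with r = 0.793 to listed reads (exact permutation p = 0.0140, adjusted p = 0.0819). The part of tissue composition or depth in the miR-449 spread was not tested.

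Single miRNAs were ranked by their correlation with the miR-449 sum, as a description without a test. In tongue the highest of 455 were miR-208b, at r = 0.690, miR-495, at 0.636, and miR-499, at 0.602, over 16 libraries. miR-208b and miR-499 are encoded within myosin heavy chain genes of slow muscle. Both are on the skeletal muscle list, but the sum of that whole list had r = 0.28 in tongue (permutation p = 0.304). In muscle miR-499 was again among the highest 5 of 436, at r = 0.934 over 8 libraries, after miR-329b-3p, miR-543 and miR-541-5p at 0.958 to 0.960. In kidney the highest of 433 was miR-615-3p, at r = 0.961 over 8 libraries, followed by miR-204, at 0.888. miR-204 is on the kidney epithelium list, but the sum of that whole list had r = 0.26 in kidney (exact permutation p = 0.54). The sum of the epithelium list had r = -0.40 there (exact permutation p = 0.32). At the other end, the lowest r was -0.963 in muscle (miR-151-3p), -0.844 in kidney (miR-27a-3p) and -0.577 in tongue (miR-1388-3p).

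Each member was also compared with the miRNAs outside the family for the shape of its level over tissues and groups. The measure was the root mean square difference of log2 CPM after each was centred on its own mean. Nearest to miR-34a over 7 tissue and status groups of 3 tables was miR-15a, at 0.20 log2 units, followed by miR-temp45-3p, miR-temp90-3p, miR-193a-3p and miR-134-3p at 0.20 to 0.24, where the median of 390 miRNAs was 1.176. Nearest to miR-34c over 9 groups of 4 tables was miR-374a at 0.49, followed by miR-27b, miR-454, miR-221-5p and miR-195 at 0.50 to 0.56, with a median of 1.12. Nearest to miR-449a over 6 groups of 3 tables was miR-95 at 0.13, followed by miR-151-3p, miR-2285ce, miR-423-5p and miR-1343-3p at 0.15 to 0.16, with a median of 0.70. Nearest to miR-449c, over the 4 groups of muscle and tongue, were miR-134-3p, miR-411a-3p, miR-105a, miR-411a and miR-7861, at 0.032 to 0.043, with a median of 0.26. For miR-449b, with the 2 groups of tongue alone, the nearest were miR-27a-5p, miR-2422, miR-1247-5p, miR-2336 and miR-370-5p, at 0.00047 to 0.015, with a median of 0.16. With 2 groups a centred profile holds only the LOS against control difference, so these matches say nothing about shape over tissues. Family members were left out of these rankings. By the same measure miR-34c lay 1.40 from miR-34a and 1.24 from miR-449a. The distance of miR-449b from the other members was not computed. miR-449a and miR-449c, over those 4 groups, lay 0.32 apart.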

How the data were processed

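Small RNA libraries were made with a TruSeq small RNA kit from 2 µg of TRIzol-extracted RNA and size-selected on a gel, per the labels' protocols. The authors deposited 4 tables of raw read counts per mature miRNA, 1 for each tissue, on genome build UMD3.1. Bowtie is named for all 45 libraries and cutadapt 1.18 for tongue alone, per the submitters' processing notes; the sources used here name neither the counting tool nor the miRNA annotation. UMIs are not named, so intervals cover counting error only.

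From these counts, CPM was computed over listed reads. Tests used edgeR 4.0.16 (R 4.3.3) with TMM factors, filterByExpr, the quasi-likelihood F test and Benjamini-Hochberg adjustment over the table, within each tissue; the 3 liver groups were fitted together and tongue had sex as a covariate. Standard errors are the absolute log2 difference over the square root of F. Tissue contrasts used control libraries, without a fetus block in the main fit, and the miRNAs listed in each table concerned. The tissue by LOS fits had the fetus as a block. Correlations used log2 CPM (prior count 2) with permutation p-values, exact under 10 libraries and with 100000 resamples otherwise (Python 3.11.15). Replicates are separate fetuses by number; the labels say nothing more of them, and no pair of libraries agreed within counting noise. The scripts were checked on simulated counts.

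Across tissues, the same number within a group was taken as the same fetus, from the labels; deviations of same-numbered libraries had a mean correlation of 0.063 to 0.23 between tissues. All members were named, and outside the family the 5 miRNAs nearest to each member in profile and, of each list, rows called and the 2 largest differences; miRNAs named for their correlation with the miR-449 sum were picked after the values were seen. The members and lists were chosen with earlier results of these data known. Alternatives were limma-voom (limma 3.58.1), DESeq2 1.42.0, other scaling factors, other filters, the 3 most abundant miRNAs left out, a replicate block and each library left out. No miRNA sequences or coordinates were used here.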

Additional observations from a re-analysis of the deposited data

Results flagged for a closer look

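In the group of control kidneys, miR-34c of control 2 stood low, at 28.3 CPM, against 39.3 to 40.4 CPM in the other 3 controls. The gap below the other libraries was larger than a Dixon test at the 95% level allows, and the same fetus had the lowest miR-34c of the control livers, 39.3 CPM. Among control tongues, miR-34c of control 1 stood high, at 117 CPM, against 40.8 to 70.8 CPM in the other 8. Of 28 groups checked, 2 were marked in this way, and chance marks about 1 in 20.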

How the results depend on the processing

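The alternatives gave 580 values, each of 1 member difference under 1 setting. They cover LOS, ART and control, the sexes, the sex by LOS term and the tissue by LOS term of miR-34c. None was called, 528 kept the direction and 52 reversed it. ART against control for miR-34c in liver turned to -0.00071 with DESeq2, -0.0035 with limma-voom, -0.00031 with RLE factors, -0.016 without factors and -0.0016 without the 3 most abundant miRNAs. In muscle, LOS against control became -0.081 for miR-449c with limma-voom, and for miR-449a 0.0066 with RLE factors, 0.00023 with a mean CPM of at least 10 and 0.0040 without the 3 most abundant miRNAs. In tongue it became 0.24 for miR-449b in females alone, and the male against female difference of miR-34a became -0.0024 without factors; the causes were not tested. Leaving out single libraries gave LOS against control ranges of -0.15 to 0.29 for kidney miR-449a, -0.39 to 0.27 and -0.12 to 0.36 for muscle miR-449a and miR-449c, and -0.48 to 0.041 and -0.40 to 0.0052 for tongue miR-449b and miR-449c. For ART against control the range was -0.091 to 0.058 for miR-34c. For sex it was -0.061 to 0.068 for miR-34a, -0.32 to 0.017 for miR-34c and -0.23 to 0.21 for miR-449a, and for sex by LOS -0.066 to 0.26 for miR-34a and -1.09 to 0.12 for miR-449c. In control fetuses, miR-34c in liver against kidney turned to 0.34 without factors, miR-34c in tongue against kidney became a call without factors at 0.80 and with the replicate block at 0.57 (0.20 to 0.41 with single libraries left out), and miR-449a in tongue against kidney became a call with limma-voom at -1.03, DESeq2 at -0.83 and the block at -1.39 (-0.91 to -0.62 with single libraries left out). The block also made a call of miR-449a in tongue against muscle, at -1.23, and turned miR-449c there to -0.16, as limma-voom did to -0.046. Replicate numbers do not pair the LOS, ART and control fetuses of a tissue, whose same-numbered deviations correlated at -0.37 to 0.27; with a replicate block the tongue miR-34a difference was -0.0094, and no member was called. The block moved the count of all miRNAs called in liver from 7 to 0 between LOS and control, from 0 to 1 between ART and control and from 15 to 3 between LOS and ART, and DESeq2 called 20, 6 and 27. In muscle edgeR called 3 with RLE factors, with a mean CPM of at least 10 and without the 3 most abundant miRNAs, 1 without LOS 3, and in kidney 2 without LOS 2; ART against control in liver had 1 without ART 4 and 5 without control 5. Without LOS 2 the LOS against control count in liver was 12, and without LOS 1, LOS 3, ART 1 or ART 2 the LOS against ART count was 5, 9, 8 or 7. Without centring on group means, r between miR-34a and miR-34c in liver was -0.057 and r between miR-34c and miR-449a in muscle -0.12. A mean CPM of at least 10 dropped kidney miR-34a, muscle miR-449c and the tongue miR-449 members, which then have no value.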
